A study of Mus musculus with 6 samples.

Results

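Chemokine receptor genes were followed by poly(A) RNA sequencing of mouse bone marrow cells sorted as dendritic cells. The set comprised the 8 receptor genes Ccr1, Ccr2, Ccr7, Cxcr2, Cxcr3, Cxcr4, Cxcr5 and Cx3cr1, taken by gene symbol from the 24421 genes of the deposited table. All 8 had a row and passed the filter on low counts, as did 13010 genes in all. The TCL group held 3 samples of C57BL/6 mice labelled as murine chronic lymphocytic leukaemia (CLL), an adoptive transfer model, in which cells of a leukaemic donor are moved into a host mouse. No transgene, donor or cell dose is named in the labels. The WT group held 3 samples of wild-type C57BL/6 mice. Cells were sorted by flow cytometry on dendritic cell markers that are not named. Time after transfer, age and the number of mice behind a sample were not given in the sources used here. P-values therefore cover only how these samples spread, and that spread may be technical.

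Chemokine receptors are G-protein-coupled receptors that steer leukocytes along gradients of small secreted proteins, the chemokines. In bone marrow, Cxcr4 and its ligand Cxcl12 hold cells in place, and Ccr2 and Cxcr2 are known for the release of monocytes and neutrophils into blood. In mice, a high Ccr2 level marks classical monocytes and a high Cx3cr1 level marks non-classical monocytes. In dendritic cells, Ccr7 guides migration to lymph nodes.

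Recovered reads came to 17158819 to 25674314 per library. The libraries are called by the running numbers of the deposited table, TCL libraries 4, 8 and 10 and WT libraries 3, 7 and 9. Levels are CPM, the reads of a gene scaled to a common library size after TMM adjustment. The labelled cell type was checked with 12 genes of dendritic cells in general, of which 3 were called lower in TCL (Flt3, Irf4 and Batf3) and 0 higher. The number lower was 0 on leaving out WT 3, WT 9 or TCL 4, 1 for WT 7, 2 for TCL 10 and 5 for TCL 8, and DESeq2 gave 7. They summed to 19116 to 44378 CPM in TCL and 57636 to 75323 CPM in WT, with TCL library 8 the lowest. The MHC class II pathway genes Cd74, H2-Aa, H2-Ab1 and H2-Eb1 made up most of this sum, Cd74 alone 45.1%. None of them was called by edgeR (adjusted p 0.0593 to 0.138). Without Cd74 the list summed to 10237 to 23493 CPM in TCL and 32899 to 43599 CPM in WT. Irf8 overlapped, at 435 to 546 CPM in TCL and 408 to 537 CPM in WT. Of 8 genes of type 1 conventional dendritic cells 1 was called higher (Cd8a) and 1 lower (Clec9a). At an unadjusted p under 0.05, 1 was higher and 4 were lower. Leaving out single libraries gave 0 to 1 higher and 0 to 3 lower. Their sums were 507 to 940 CPM in TCL and 928 to 1127 CPM in WT. Clec9a had 20.6 to 48.9 CPM in TCL and 86.7 to 122 CPM in WT. The chemokine receptor gene Xcr1, also in this list, had 10.6 to 38.1 CPM in TCL and 37.3 to 49.5 CPM in WT (adjusted p 0.178 by edgeR). No listed marker with a row had 0 reads over all libraries. The integrin gene Itgax (CD11c) was abundant, at 375 to 655 CPM in TCL and 383 to 528 CPM in WT, while the conventional dendritic cell factor gene Zbtb46 had 3.92 to 15.5 CPM in TCL and 2.70 to 11.8 CPM in WT. Markers of other cells were abundant too, with S100a9 of neutrophils at 3226 to 8288 CPM in TCL and 7699 to 17181 CPM in WT. No level below can be assigned to dendritic cells alone, and in such bulk samples fewer cells of a type and less RNA per cell cannot be told apart.

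The receptors that separated the groups, and the receptor with the highest level per length, are shown by the 250 bases before their RefSeq start (GRCm38.p6, given 5′ to 3′ on the strand of the gene). Of the 8 genes 6 had an entry among the RefSeq promoters. Ccr2 lies on the plus strand of chromosome 9 (chr9:124101933-124102182). Cxcr3 lies on the minus strand of chromosome X (chrX:101734148-101734397) and Cxcr4 on the minus strand of chromosome 1 (chr1:128592300-128592549). The GENCODE annotation starts Ccr2 at 124101950 and Cxcr3 at 101734269, within their windows. Parts of these windows therefore lie inside the genes as GENCODE gives them. Capitals mark matches to TATAAA, TTCNNNGAA or GAGGAAGT on either strand, overlapping matches included.
Ccr2: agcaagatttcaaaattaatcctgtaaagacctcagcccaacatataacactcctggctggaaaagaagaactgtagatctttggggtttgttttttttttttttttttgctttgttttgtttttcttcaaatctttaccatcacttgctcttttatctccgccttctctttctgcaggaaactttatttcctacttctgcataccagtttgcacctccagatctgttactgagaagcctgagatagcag
Cxcr3: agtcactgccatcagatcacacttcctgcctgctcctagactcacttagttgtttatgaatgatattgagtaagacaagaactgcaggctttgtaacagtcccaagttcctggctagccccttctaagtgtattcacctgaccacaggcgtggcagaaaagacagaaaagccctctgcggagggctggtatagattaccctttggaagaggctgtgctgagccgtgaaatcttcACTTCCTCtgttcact
Cxcr4: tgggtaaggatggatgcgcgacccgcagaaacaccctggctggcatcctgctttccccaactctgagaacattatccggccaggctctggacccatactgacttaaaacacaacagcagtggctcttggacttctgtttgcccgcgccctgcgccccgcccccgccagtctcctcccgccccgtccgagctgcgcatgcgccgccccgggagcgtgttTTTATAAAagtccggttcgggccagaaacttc
TATAAA, the core of the TATA box, was found in the Cxcr4 window on both strands, with the first match 32 bases before the start, and was in 12.4% of 32851 windows of this length. GAGGAAGT, a sequence of the kind that the myeloid factor PU.1 binds, was found once in the Cxcr3 window and was in 2.44% of windows. In Cxcr3 it lay on the strand opposite the gene, starting 16 bases before the RefSeq start and inside the gene as GENCODE gives it. TTCNNNGAA, the palindrome that STAT factors bind, was in none of the 3 windows and in 7.02% of all windows. The Cxcr4 window held 19 CG pairs, those of Cxcr3 and Ccr2 held 3 and 1, and the median over all windows was 6. These matches describe letters in a window and no binding was measured.

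Of the 8 receptors 1 changed. Ccr2, the receptor for Ccl2 and Ccl7, was lower in TCL, and the other 7 did not pass the test. Across all tested genes 4.64% passed an adjusted p under 0.05 in edgeR's quasi-likelihood test, 2.61% lower and 2.03% higher in TCL. No receptor of the set was called higher (0 calls by edgeR, and also 0 by DESeq2, limma-voom and limma-trend, with 0 at an unadjusted p under 0.05). Lower in TCL, 2 had an unadjusted p under 0.05, Ccr2 and Cxcr3. The same 2 had groups that did not overlap, as did 28.2% of all tested genes. The share of all tested genes with an unadjusted p under 0.05 is not given here. Counts at that threshold, for these receptors and for the other lists, therefore have no background beside them. The median log2 fold change of the 8 was 0.09, against 2.62e-05 over all tested genes. A single receptor of the 8, again Ccr2, passed an adjusted p under 0.05 in the authors' deposited table, where 8.11% of genes passed.

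**Figure D1:**
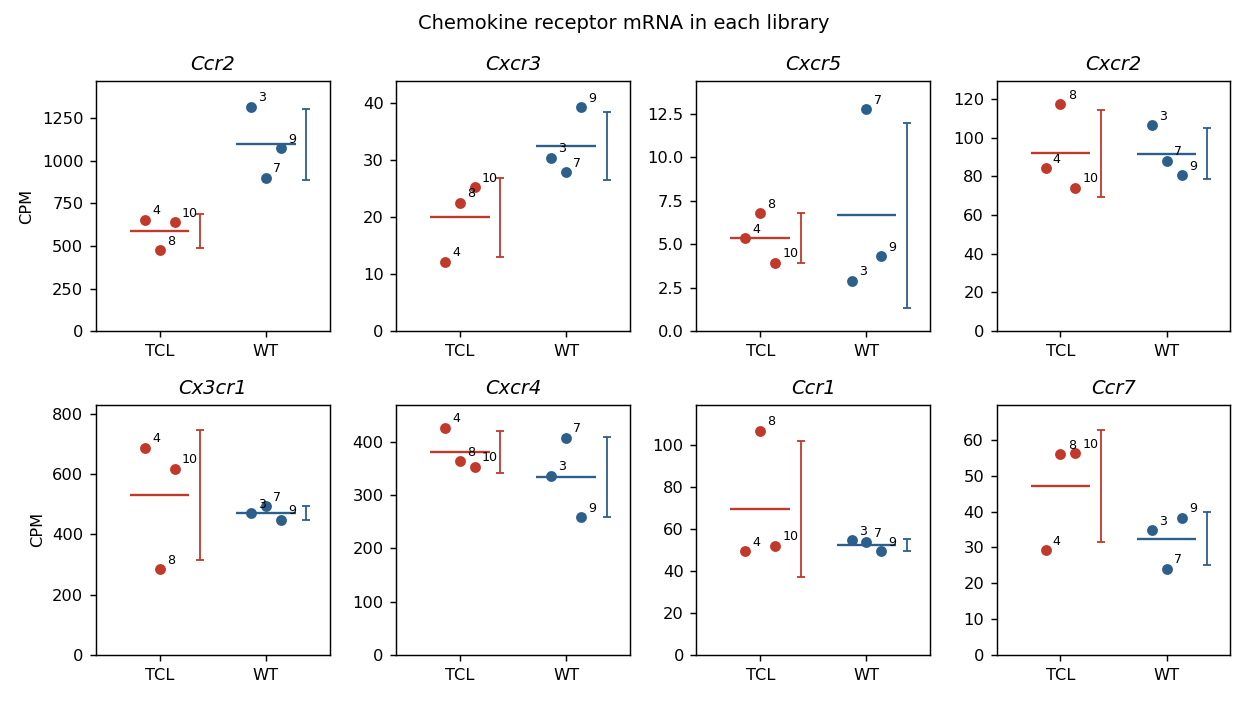
Levels of the 8 chemokine receptor genes in CPM (vertical axes, linear from 0) in the 3 TCL and 3 WT libraries, with library numbers beside the points, the group mean as a line and the SD as a bar. Ccr2 and Cxcr3 have TCL points below all WT points, and TCL library 8 lies apart from TCL libraries 4 and 10 for Ccr1 and Cx3cr1.

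Ccr2 had 652, 475 and 638 CPM in TCL libraries 4, 8 and 10, against 1315, 900.4 and 1073 CPM in WT libraries 3, 7 and 9. Every TCL library lay below every WT library. Ccr2 averaged 588 ± 98.2 CPM in TCL and 1096 ± 208 CPM in WT (SD, n = 3 each), a log2 fold change of -0.90 ± 0.20 SE (BH-adjusted p 0.0348), which is 1.86-fold lower in TCL. With 3 libraries against 2, the call held without WT library 7 (adjusted p 0.0415) and without TCL library 8 (0.0478). It was lost on leaving out WT 3 (0.123), WT 9 (0.083), TCL 4 (0.0802) or TCL 10 (0.0674), with log2 fold changes from -0.97 to -0.74 in these 4 fits. In the authors' deposited table Ccr2 had a log2 fold change of -0.89 and an adjusted p of 0.000626.

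Ccr2 is carried by classical monocytes and by part of the type 2 conventional dendritic cells. Of 10 classical monocyte genes none were called by edgeR (0 in either direction, 2 higher and 0 lower at an unadjusted p under 0.05), and DESeq2 called 1 higher while limma-voom and limma-trend called 0. On leaving out TCL 8, 1 was called higher and 1 lower. Their summed level was 4285 to 5253 CPM in TCL and 3552 to 4694 CPM in WT, so that the groups overlapped. Csf1r made up 35.0% of it, at 1170 to 2332 CPM in TCL and 1138 to 1379 CPM in WT. Without Csf1r the sums also overlapped, at 1961 to 4082.5 CPM in TCL and 2173 to 3556 CPM in WT. The monocyte gene Ly6c2 had 289.5 to 867 CPM in TCL and 337 to 643 CPM in WT. Of 8 type 2 dendritic cell genes 3 were called lower and 0 higher, namely the lectin genes Cd209a, Clec10a and Mgl2, with 5 lower and 1 higher at an unadjusted p under 0.05. Sirpa, a surface receptor and the most abundant gene of the list, was the one in the higher direction, at 1229 to 1753 CPM in TCL and 1108 to 1157 CPM in WT, without passing the test. Clec4a4 and Notch2 had groups that overlapped. On leaving out TCL 8, 4 were called lower and 1 higher. The list summed to 1598 to 2339 CPM in TCL and 2617 to 3273 CPM in WT. Mgl2 had 4.31 to 5.77 CPM in TCL and 175 to 246 CPM in WT, and Cd209a had 17.7 to 44.4 CPM in TCL and 473 to 972 CPM in WT. Of 12 macrophage genes 5 were called lower and 1 higher, with sums of 1818 to 4307 CPM in TCL and 5736 to 6444 CPM in WT. The part of these other cells in the Ccr2 difference was not tested.

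Cxcr3, the receptor for the interferon-induced chemokines Cxcl9 and Cxcl10, had 12.1, 22.5 and 25.2 CPM in TCL libraries 4, 8 and 10, against 30.4, 27.8 and 39.2 CPM in WT libraries 3, 7 and 9. The groups did not overlap, with TCL library 4 the lowest. On the log2 scale TCL over WT gave -0.70 (SE 0.27), but the adjusted p of 0.173 missed the threshold, and it stayed between 0.108 and 0.330 in the 15 other settings and tools tried. Cxcr3 is found on plasmacytoid dendritic cells and on T and natural killer cells. Of 10 plasmacytoid genes none were called by edgeR (0 in either direction, 3 higher and 1 lower at an unadjusted p under 0.05), where 2 were called higher by DESeq2, by limma-trend with a pseudocount of 5 and under library size scaling, and 0 by limma-voom and by limma-trend with a pseudocount of 1. Their sums of 561 to 954 CPM in TCL overlapped those of 548 to 970 CPM in WT. Of 13 tested T and natural killer cell genes 1 was called higher, the granzyme gene Gzmb, and 0 lower. This list summed to 236 to 367 CPM in TCL and 179 to 256 CPM in WT. The T cell receptor complex genes were low and did not pass the test. Cd3e had 2.09 to 3.44 CPM in TCL and 0.549 to 2.67 CPM in WT, Cd3d had 4.38 to 5.02 CPM in TCL and 5.05 to 6.99 CPM in WT, and Cd3g had 7.01 to 7.30 CPM in TCL and 6.09 to 9.6004 CPM in WT. Of the 3 genes Cd3d alone had groups that did not overlap, lower in TCL. The part of these cells in the Cxcr3 values was not tested.

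Cxcr4, the receptor for Cxcl12, had 426, 364 and 353 CPM in TCL libraries 4, 8 and 10, against 337, 407 and 258 CPM in WT libraries 3, 7 and 9. The groups overlapped. Between the groups its log2 fold change was 0.19 ± 0.19 SE (BH-adjusted p 0.579), and leaving out single libraries moved it from 0.05 to 0.36.

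Cx3cr1, the receptor for the membrane-bound chemokine Cx3cl1, had 688, 284 and 619 CPM in TCL libraries 4, 8 and 10, against 471, 494 and 449 CPM in WT libraries 3, 7 and 9. TCL libraries 4 and 10 lay above all WT libraries and TCL library 8 below all of them. TCL over WT came to a log2 fold change of 0.17 ± 0.28 SE (BH-adjusted p 0.754). Without TCL library 8 it was 0.48, which did not pass either, and it turned to -0.06 without TCL library 4. Cx3cr1 shares 78 exon bases with Gm33858 on the opposite strand, where reads cannot be assigned without the strand setting of the counting. Of 11 genes of non-classical monocytes 3 were called higher in TCL, Treml4, Spn and Cebpb, and 0 lower. Leaving out single libraries gave 1 to 6 higher and 0 lower. At an unadjusted p under 0.05, 7 were higher and 1 lower. The 1 lower was Fabp4, at 26.3 to 57.6 CPM in TCL and 76.6 to 127 CPM in WT (adjusted p 0.0511 by edgeR). DESeq2, limma-voom, limma-trend with a pseudocount of 5 and the fit with no filter on low counts each called 1 lower. That list summed to 4598 to 7338 CPM in TCL and 3730 to 4460 CPM in WT, with TCL library 8 the lowest of the TCL libraries. Ace, a defining gene of the list, had 1616, 524 and 1466 CPM in TCL libraries 4, 8 and 10. It had 639 to 704 CPM in WT, the same order of libraries around WT as for Cx3cr1. The other defining genes, Nr4a1 and Treml4, did not share this order. In TCL library 8 Nr4a1 had 365 CPM, within the WT range of 293 to 407 CPM. Treml4 had 242 CPM there, above the WT range of 148 to 199 CPM. The part of non-classical monocytes in the Cx3cr1 values was not tested.

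Ccr2 and Cx3cr1 were also set against each other within each library, a ratio chosen after its values were seen and given with no test. Ccr2 reads per Cx3cr1 read came to 0.948, 1.67 and 1.03 in TCL libraries 4, 8 and 10, against 2.79, 1.82 and 2.39 in WT libraries 3, 7 and 9. All TCL ratios lay below all WT ratios, with TCL library 8 and WT library 7 next to each other. Of the summed reads of the 8 receptors Ccr2 took 33.9% ± 0.976 in TCL and 51.5% ± 5.89 in WT (SD, n = 3 each). Cx3cr1 took 29.7% ± 8.58 in TCL and 22.4% ± 2.29 in WT, and Cxcr4 took 22.2% ± 3.01 in TCL and 15.8% ± 3.90 in WT. The summed level of the 8 was 1432 to 1947 CPM in TCL and 1992 to 2352 CPM in WT.

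**Figure D2:**
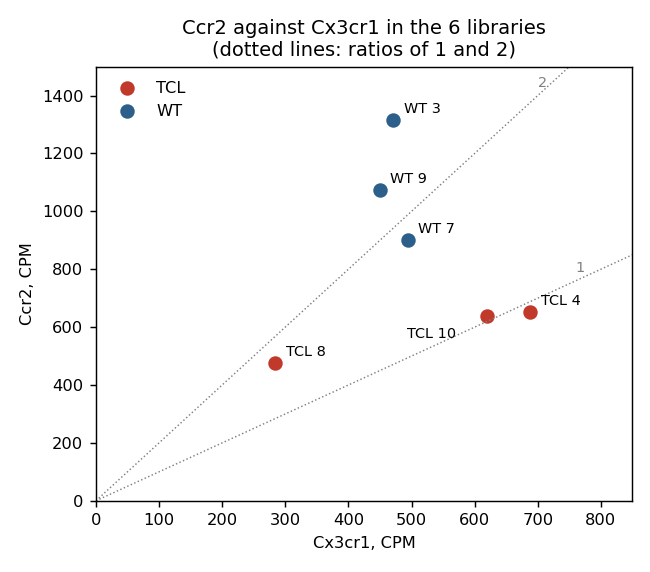
Ccr2 (vertical axis, CPM) against Cx3cr1 (horizontal axis, CPM) in each library, with dotted lines at ratios of 1 and 2. The TCL points lie at 475 to 652 CPM of Ccr2 and spread from 284 to 688 CPM of Cx3cr1, and the WT points lie at 900.4 to 1315 CPM of Ccr2 within 449 to 494 CPM of Cx3cr1.

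Ccr1, an inflammatory receptor for Ccl3, Ccl5, Ccl6 and Ccl9, had 49.4, 107 and 52.0 CPM in TCL libraries 4, 8 and 10, against 54.7, 53.6 and 49.3 CPM in WT libraries 3, 7 and 9. TCL library 8 alone stood above the other 5 libraries. Relative to WT its log2 fold change came to 0.40 ± 0.27 SE (BH-adjusted p 0.411), and -0.05 without TCL library 8. In the same library the classical monocyte gene Ly6c2 was also at its highest, at 867 CPM against 289.5 to 643 CPM in the other 5 libraries. So was F13a1 of the same list, at 206 CPM against 72.0 to 152 CPM. Csf1r, the most abundant gene of the list, was not, at 1170 CPM in TCL library 8 against 2332 and 2324 CPM in TCL libraries 4 and 10. The part of such cells in the Ccr1 value was not tested.

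Ccr7, which guides mature dendritic cells to lymph nodes through Ccl19 and Ccl21, had 29.3, 56.0 and 56.4 CPM in TCL libraries 4, 8 and 10, against 34.9, 24.1 and 38.4 CPM in WT libraries 3, 7 and 9. TCL libraries 8 and 10 lay above WT and TCL library 4 within it. On the log2 scale TCL over WT gave 0.54 ± 0.27 SE (BH-adjusted p 0.273), higher than 0 in every fit and called in none of the 15 other settings and tools, with adjusted p from 0.128 to 0.571. Of 10 genes of mature migratory dendritic cells 3 were called lower in TCL, the chemokine genes Ccl22 and Ccl17 and the activation marker Cd83, and 0 higher, with 5 lower and 2 higher at an unadjusted p under 0.05. The 2 in the higher direction were Il4i1, an amino acid oxidase gene, at 3.06 to 6.79 CPM in TCL and 1.59 to 2.24 CPM in WT, and Relb, an NF-kB subunit gene, at 92.4 to 261 CPM in TCL and 109.7 to 116 CPM in WT. Lower calls numbered 1 to 4 with single libraries left out, 2 were called higher on leaving out TCL 8, and DESeq2 called 1 higher. That list summed to 332 to 600.5 CPM in TCL and 479 to 589.6 CPM in WT. Ccl22 had 1.47 to 4.08 CPM in TCL and 36.4 to 54.5 CPM in WT. Fscn1, which encodes an actin-bundling protein of migrating dendritic cells, had 27.9 to 93.5 CPM in TCL and 57.6 to 71.9 CPM in WT. The difference between Ccr7 and these genes was not tested.

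Cxcr2, the neutrophil receptor for Cxcl1 and Cxcl2, had 84.3, 117 and 74.0 CPM in TCL libraries 4, 8 and 10, against 106, 88.2 and 80.6 CPM in WT libraries 3, 7 and 9. The groups overlapped, with a log2 fold change of 0.0026 ± 0.20 SE (BH-adjusted p 0.996) whose sign turned in 7 of 15 settings. Of 12 tested neutrophil genes none were called by edgeR (0 in either direction, 0 higher and 4 lower at an unadjusted p under 0.05), where DESeq2 called 2 lower and limma-voom and limma-trend 0. Their median log2 fold change was -0.52, and they summed to 15477 to 34395 CPM in TCL and 30045 to 62492 CPM in WT. The part of neutrophils in the Cxcr2 values was not tested.

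Cxcr5, the receptor for Cxcl13 on B cells, was the lowest of the set, at 5.36, 6.77 and 3.93 CPM in TCL libraries 4, 8 and 10, against 2.91, 12.8 and 4.31 CPM in WT libraries 3, 7 and 9. WT library 7 stood above the other 5. Between the groups its log2 fold change was -0.31 ± 0.51 SE (BH-adjusted p 0.756) and turned to 0.56 without WT library 7 (adjusted p 0.506). The 12 B cell genes summed to 214 to 300.1 CPM in TCL and to 348, 862 and 635 CPM in WT libraries 3, 7 and 9, so that WT library 7 was the highest there too. Of these genes 6 were called lower in TCL and 0 higher, with 2 to 6 lower when single libraries were left out. At an unadjusted p under 0.05, 9 were lower and 1 higher. The 1 in the higher direction was Cd5, at 1.35 to 2.94 CPM in TCL and 0.368 to 1.29 CPM in WT. Its groups did not overlap, but it did not pass the test (adjusted p 0.176 by edgeR) and rests on 175 reads in TCL and 47 in WT. The part of the B cell genes in the Cxcr5 values was not tested. Cxcr5 shares 110 exon bases with Bcl9l on the opposite strand, where reads cannot be assigned without the strand setting.

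**Figure D3:**
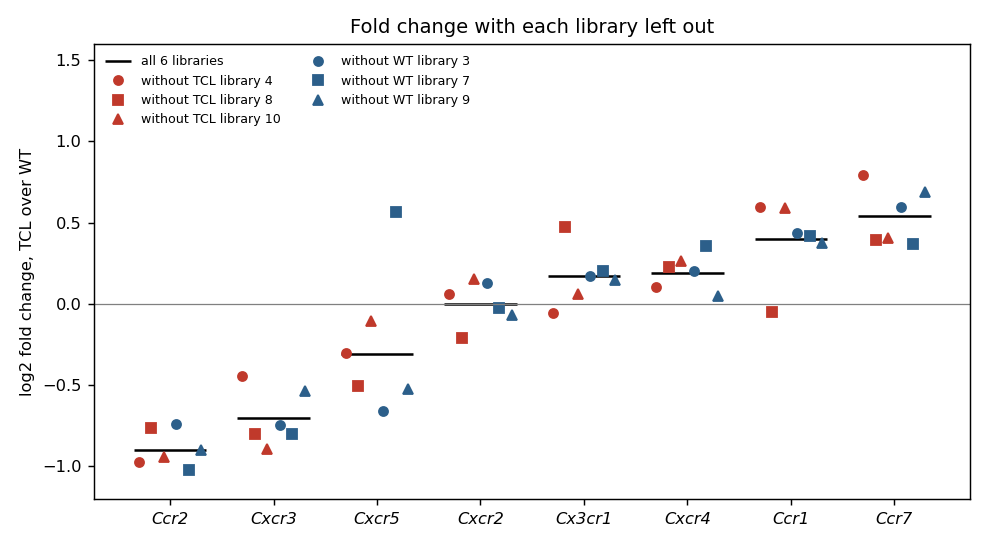
Log2 fold change of TCL over WT (vertical axis) of the 8 receptors (horizontal axis) with all 6 libraries, as a black line, and with each library left out, as a symbol. Ccr2 and Cxcr3 stay below 0 in every fit, while Ccr1 falls to -0.05 without TCL library 8 and Cxcr5 rises to 0.56 without WT library 7.

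To compare levels between receptors, CPM was divided by the summed exon length in kilobases (RPKM). In TCL the order of mean levels was Cxcr4 (211 ± 21.9 RPKM), Cx3cr1 (118 ± 47.9), Ccr2 (87.1 ± 14.5), Cxcr2 (30.1 ± 7.41), Ccr1 (24.5 ± 11.4), Ccr7 (23.9 ± 7.86), Cxcr3 (11.5 ± 3.98) and Cxcr5 (1.61 ± 0.426). In WT it was Cxcr4 (185 ± 41.3 RPKM), Ccr2 (162 ± 30.8), Cx3cr1 (105 ± 4.91), Cxcr2 (30.1 ± 4.34), Cxcr3 (18.8 ± 3.45), Ccr1 (18.5 ± 1.02), Ccr7 (16.4 ± 3.76) and Cxcr5 (0.873 to 3.83 over the 3 libraries), each other value being a mean ± SD with n = 3. In TCL the libraries of Cx3cr1 and Ccr2, of Cxcr2 and Ccr1, and of Ccr1 and Ccr7 overlapped as neighbours in this order, and those of Cxcr4 and Cx3cr1 did not. In WT the overlapping neighbours were Cxcr4 and Ccr2, Cxcr3 and Ccr1, and Ccr1 and Ccr7. With the longest transcript as the length, Ccr2 came to 103 RPKM in TCL and 191 RPKM in WT, which put it above Cxcr4 (185 RPKM) in WT, and the other positions stayed as given.

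**Figure D4:**
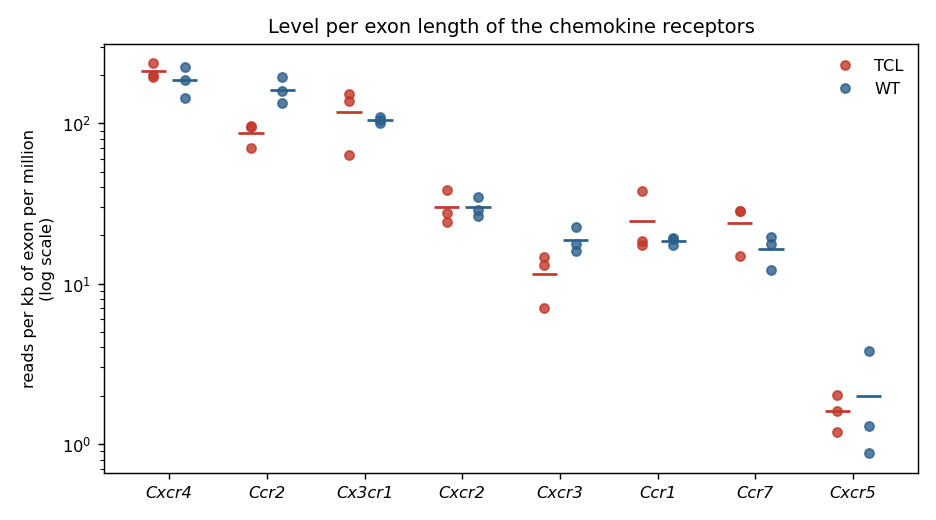
Level per exon length of the 8 receptors in RPKM (vertical axis, log scale), with 3 TCL points left of 3 WT points and group means as lines. Cxcr4, Ccr2 and Cx3cr1 lie above 60 RPKM in every library and Cxcr5 below 4 RPKM in every library.

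Ccr2 lies at 124101950 to 124113557 of chromosome 9 (GRCm38, GENCODE) in a run of receptor genes that includes Ccr1 at 123962124 to 123968692. Cx3cr1 (119901616 to 120069879) and Cxcr5 (44511787 to 44561877) lie on the same chromosome outside this run. Chromosome 1 carries Cxcr2 (74153989 to 74161246) and Cxcr4 (128588199 to 128592293), chromosome 11 carries Ccr7 (99144196 to 99155077) and chromosome X carries Cxcr3 (101731535 to 101734269). Ccr3 lies 70261 bases from Ccr2 and Ccr1 lies 133258 bases from it. Ccr1 has a close copy in the same run, Ccr1l1, so its reads could be shared in counting. Ccr3, the eotaxin receptor of eosinophils and basophils, had 3.57, 3.35 and 2.88 CPM in TCL libraries 4, 8 and 10, against 10.9, 11.2 and 8.95 CPM in WT libraries 3, 7 and 9. It fell by 1.66 log2 units ± 0.27 SE (BH-adjusted p 0.00953) and was called in all 15 other settings. Whether the changes of Ccr2, Ccr3 and Ccr1 differ from each other was not tested. Of 9 basophil and mast cell genes 5 were called lower in TCL and 0 higher, but 0 to 5 when single libraries were left out. They summed to 225 to 302 CPM in TCL and 348 to 859 CPM in WT, and their part in the Ccr3 difference was not tested.

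Among the 10 other signalling chemokine receptors 7 were tested, and 2 were called lower in TCL, Ccr3 and Ccr10, with 0 higher by edgeR. At an unadjusted p under 0.05, 1 was higher and 3 were lower, Xcr1 among the lower. DESeq2 called 1 higher and 3 lower. With limma-trend and a pseudocount of 5 the counts were 1 higher and 2 lower, and under library size scaling 1 higher and 1 lower. For limma-voom they were 0 higher and 1 lower, and for limma-trend with a pseudocount of 1 they were 0 higher and 2 lower. Ccr10 was near the detection limit, with 26 reads in all in TCL and 167 in WT. Its log2 fold change was -3.07 ± 0.75 SE (BH-adjusted p 0.0499), and it was called without TCL library 8 but not without any other single library (adjusted p 0.0872 to 0.146). Ccr9, a receptor of plasmacytoid dendritic cells that is also in their marker list, had 51.8, 105 and 60.9 CPM in TCL libraries 4, 8 and 10, against 29.8, 41.7 and 19.9 CPM in WT libraries 3, 7 and 9. Its groups did not overlap, but its log2 fold change of 1.25 had an adjusted p of 0.0559, which passed with library size scaling, DESeq2 and limma-trend with a pseudocount of 5. Of 6 tested atypical receptors and receptor-like genes 1 was called lower, Gpr182, and 0 higher by edgeR (2 higher at an unadjusted p under 0.05, 1 by DESeq2 and 0 by limma-voom and limma-trend). Gpr182, an endothelial receptor that takes up chemokines, had 22 reads in TCL and 236 in WT (log2 fold change -3.66, adjusted p 0.0112, but 0.0666 without WT library 9). Ccrl2, which binds chemerin and presents it, had 44.1, 17.8 and 35.4 CPM in TCL libraries 4, 8 and 10, against 13.6, 5.52 and 13.6 CPM in WT libraries 3, 7 and 9 (log2 fold change 1.57, adjusted p 0.0573). Without TCL library 8 its adjusted p was 0.0127, and that of the chemerin receptor gene Cmklr1 was 0.0302 where all libraries gave 0.156.

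**Figure D5:**
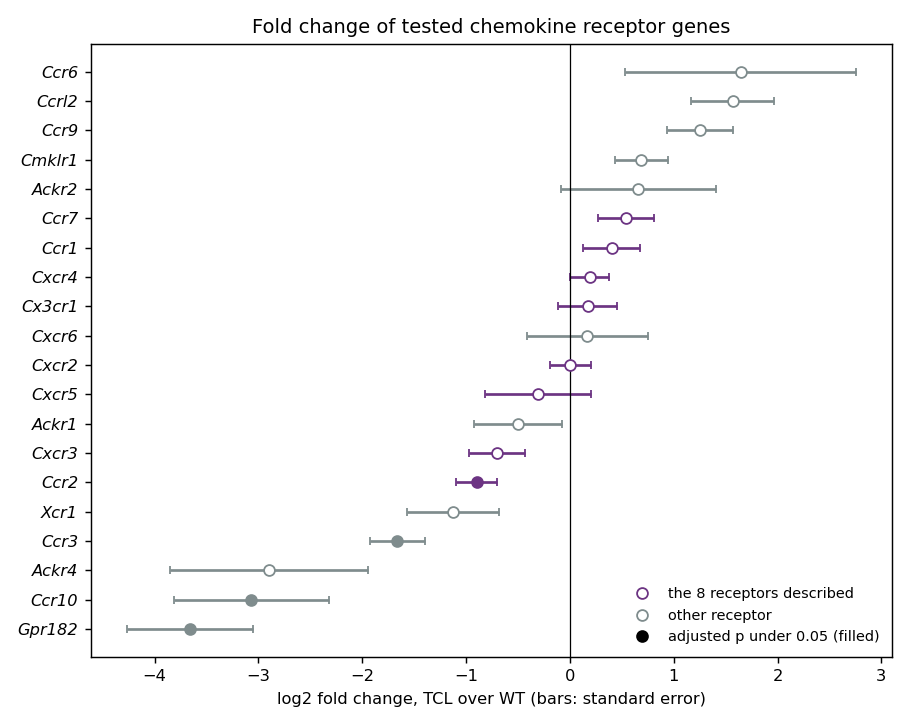
Log2 fold change of TCL over WT (horizontal axis) of tested chemokine receptor genes, with standard errors as bars, the 8 receptors described in purple and other receptors in grey, and filled symbols for an adjusted p under 0.05. Ccr2, Ccr3, Ccr10 and Gpr182 are filled, and all 4 lie below 0.

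Of 21 ligand genes of the 8 receptors 15 were tested, 2 were called lower in TCL and 0 higher by edgeR. At an unadjusted p under 0.05, 1 was higher and 5 were lower. DESeq2 called 1 higher and 3 lower, and limma-voom and limma-trend each called 0 higher and 2 lower. The median log2 fold change of the 15 was -0.09. Ccl9, a myeloid ligand of Ccr1, had 295, 249 and 217 CPM in TCL libraries 4, 8 and 10, against 856, 649 and 683 CPM in WT libraries 3, 7 and 9. It fell by 1.52 log2 units ± 0.18 SE (BH-adjusted p 0.00268). Cxcl12, the stromal ligand of Cxcr4, had 1.13, 6.69 and 3.89 CPM in TCL libraries 4, 8 and 10, against 62.2, 222 and 126 CPM in WT libraries 3, 7 and 9 (log2 fold change -5.12 ± 0.63 SE at an adjusted p of 0.00292). Both were called with every single library left out. Of 11 genes of marrow stroma and vessels 5 were called lower and 1 higher in TCL, with 3 to 6 lower when single libraries were left out and 1 lower by limma-voom. The gene called higher was Pecam1, an adhesion molecule that leukocytes carry as well as vessels, at 169 to 261 CPM in TCL and 86.8 to 96.4 CPM in WT. Pecam1 made up 72.4% of the list's summed level, which was 185 to 285 CPM in TCL and 148 to 246 CPM in WT. Without it the list summed to 11.5 to 24.9 CPM in TCL and 51.6 to 154 CPM in WT, with no overlap. Lepr, a marker of marrow stromal cells, had 0.0871 to 0.816 CPM in TCL and 2.47 to 18.9 CPM in WT. The part of stromal RNA in the Cxcl12 difference was not tested.

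Other ligands gave no call. Ccl6, a further ligand of Ccr1, had 514 ± 43.7 CPM in TCL and 797 ± 111 CPM in WT (SD, n = 3 each) with groups that did not overlap and an adjusted p of 0.0572. Ccl3 had 49.6 ± 19.4 CPM in TCL and 82.1 ± 8.04 CPM in WT (adjusted p 0.163). The Ccr2 ligand Ccl2 was low in both groups, at 4.16 to 6.75 CPM in TCL and 4.23 to 6.50 CPM in WT (log2 fold change 0.14 ± 0.33 SE at an adjusted p of 0.829). The Cxcr3 ligands Cxcl9 and Cxcl10 had log2 fold changes of 0.37 and 0.25 (adjusted p 0.459 and 0.462). Cxcl2 and Ccl19 had log2 fold changes of 1.05 and 0.75 at levels of 0.974 to 5.09 and 0.286 to 1.16 CPM in TCL and 0.549 to 2.196 and 0.110 to 0.797 CPM in WT (adjusted p 0.454 and 0.655). Ccl21a had 0 reads in every library, where 3 reads would be 0.112 to 0.184 CPM, a limit for counting error only. Cxcl13 and Cx3cl1 were too low to be tested, with 77 reads in TCL and 6 in WT for Cxcl13 and 14 reads in TCL and 50 in WT for Cx3cl1.

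Of 35 genes that carry or end the receptor signal, all tested, 2 were called higher and 1 lower in TCL, and 32 did not pass. Their median log2 fold change was 0.21, against 2.62e-05 over all tested genes. Pik3r5, the regulatory subunit of the kinase that G-protein-coupled receptors activate in leukocytes, had 178, 217 and 238 CPM in TCL libraries 4, 8 and 10, against 108, 100.2 and 121 CPM in WT libraries 3, 7 and 9. It rose by 0.94 log2 units ± 0.16 SE (BH-adjusted p 0.0129), a call that was lost on leaving out WT library 3 (adjusted p 0.0594). Rgs3, which shortens G-protein signals, had 38.9, 19.9 and 43.1 CPM in TCL libraries 4, 8 and 10, against 10.7, 7.42 and 16.4 CPM in WT libraries 3, 7 and 9. It rose by 1.56 log2 units ± 0.35 SE (BH-adjusted p 0.0392), and 4 of the 6 fits with a library left out lost the call, all but those without WT library 9 or TCL library 8 (highest adjusted p 0.132). The G-protein subunit gene Gng2 had 64.3, 91.5 and 78.0 CPM in TCL libraries 4, 8 and 10, against 129.6, 143 and 115 CPM in WT libraries 3, 7 and 9, so that the groups did not overlap. It fell by 0.73 log2 units ± 0.17 SE (BH-adjusted p 0.0439), a call lost without any single library other than TCL library 8 (adjusted p up to 0.148). The count over the list was 0 on leaving out WT 3, 1 for WT 7 or TCL 4, 2 for WT 9 or TCL 10, and 8 for TCL 8, of which 6 were higher. The abundant genes Gnai2, the inhibitory G-protein subunit to which chemokine receptors couple, and Rac2, a small GTPase of leukocyte movement, had log2 fold changes of -0.02 and -0.13 (adjusted p 0.944 and 0.692), with the sign of Gnai2 turning under library size scaling (0.0629).

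The genes whose log2 CPM followed Ccr2 most closely over the 6 libraries, out of 10109 genes with a mean of at least 5 CPM, were Pkdcc, Adam22 and Tmem159, with Pearson's r of 0.998, 0.993 and 0.992. All 6 points share the contrast of TCL with WT, so these values describe a shared order of libraries.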

How the data were processed

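Poly(A) libraries of 3 TCL and 3 WT samples were analysed. Tools listed without roles in the submitters' processing notes are STAR 2.4.2a, cutadapt, DESeq2 and HTSeq, with mm10 as build. Annotation and strand setting were not given in the sources used here. Per the file headers, the authors deposited a normalized signal per gene and library, its mean, and for TCL against WT a p-value, raw and adjusted, beside a log2 fold change. Every value was a whole multiple of the library's smallest value (100% within 0.001), so whole reads were recovered. Columns were assigned by group only, since their running numbers are not the replicate numbers of the labels.

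Reads of 13010 genes left by filterByExpr were tested with edgeR 4.0.16 (R 4.3.3), TMM factors and a robust quasi-likelihood fit, with Benjamini-Hochberg adjustment over all tested genes, and the scripts were tested on simulated data. SE was taken as the size of the log2 fold change over root F. Alternatives used DESeq2 1.42.0, limma 3.58.1 on log2 of the deposited signal plus 1 or 5, limma-voom, other scalings and filters, and each library left out. The fit without robust estimation was added after the data were seen. Exon lengths and positions came from GENCODE M21. Of 218 list genes 216 were in the table, and Ly6g and Trac are not analysed here. The values of 1 further receptor are not reported here, though it counts in its list. Named genes were all 8 receptors, called genes of each pathway list by adjusted p, its 2 most abundant genes, the main ligands, and the first 3 genes of each marker list. Cd83, Relb, Il4i1, Sirpa, Clec4a4, Notch2, Pecam1, Spn, Cebpb, Irf4, Batf3, Gzmb and Ccr2 per Cx3cr1 read were chosen after their values were seen. So were Cd74, H2-Aa, H2-Ab1, H2-Eb1, Irf8, Cd8a, Fabp4, Cd5 and Ackr4. The receptors and lists were chosen with earlier results of these data known. PCR reads are not independent molecules, so intervals and limits cover counting error only.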

Additional observations from a re-analysis of the deposited data

How the results depend on the processing

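Genes called numbered 604 with all 6 libraries, 1442 with DESeq2 and 246 (without TCL library 4) to 904 (without TCL library 8) with single libraries left out. Of the 604 calls 43.7% were higher in TCL, against 54.3% with library size scaling. The number of called chemokine receptors of the set was 1 in the 9 other settings and 0 to 1 with single libraries left out.

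The log2 fold change of Cxcr2 (0.0026) turned with a filter of 5 CPM (-0.0047), limma-voom (-0.0149) and limma-trend with a pseudocount of 1 (-0.00600) or 5 (-0.00595), and that of Gnai2 (-0.02) with library size scaling (0.0629). With single libraries left out, log2 fold changes that turned ranged from -0.0476 to 0.60 for Ccr1, from -0.21 to 0.15 for Cxcr2, from -0.66 to 0.56 for Cxcr5, from -0.0574 to 0.475 for Cx3cr1, from -0.0855 to 0.0267 for Gnai2, from -0.0242 to 0.375 for Ccl2 and from -0.0633 to 1.94 for Cxcl2. Ccr2, Cxcr3, Cxcr4 and Ccr7 kept their direction in every setting. DESeq2 called 4 other receptors against 2, 2 atypical receptors against 1, 4 ligands against 2 and 8 signalling genes against 3. Ccr10 also missed the threshold with library size scaling (adjusted p 0.0533) and limma-voom (0.0585), Rgs3 with limma-voom (0.059) and Gng2 with library size scaling (0.0757).

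No paired analysis was possible because the running numbers of the columns are not the replicate numbers of the labels. The causes of these changes were not tested. With 3 libraries a group, leaving 1 out also lowers the number of samples. Low genes such as Ccr10, Gpr182 and Cxcl13 rest on few reads.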
